A study of Mus musculus with 12 samples.

Results

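The genes described here are 41 interferon-stimulated genes, chosen from a list by their known response to interferon, of 21743 genes in a Drop-seq table of Brca1-deficient mouse mammary glands and mammary tumors. All 41 were in the table. Interferons are secreted proteins, and those of type I and type III are released when foreign or misplaced nucleic acid is sensed. Type I and type III interferons signal through JAK kinases to a complex with STAT2 and IRF9 that binds the interferon-stimulated response element, whereas interferon gamma acts mainly at the gamma-activated site. The stimulated genes encode nucleic acid sensors, the transcription factors of the pathway itself, antiviral effectors, ubiquitin and ADP-ribose enzymes, and immunity GTPases, and in tumors their expression is followed as a sign that cells have met interferon.

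The cells came from 2 MMTV-Cre; Brca1 flox/flox mice of mixed C57BL/6 and 129/Sv background, in which Cre is driven by a promoter active in mammary epithelium. Mouse 1 gave the gland cells called MG1 and the tumor cells called MT1, and mouse 2 gave MG2 and MT2. Glands were the fourth pair, and hematopoietic and endothelial cells had been removed by selection from every cell suspension. The labels give no age for the mice. Both floxed alleles and Cre were shared by all groups and no wild-type gland was used, so each contrast sets a tumor against a gland of the same genotype or a tumor against the other tumor. MG1 held 818 cells (2 libraries), MG2 2335 (2 libraries), MT1 7690 (5 libraries) and MT2 10314 (3 libraries). The libraries of a group come from 1 tissue of 1 mouse, so the p-values over libraries cover the spread between libraries and not between animals, and mouse, tumor and any preparation batch cannot be told apart.

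Libraries held between 693333 and 14841414 unique molecular identifiers (UMIs, 1 per captured RNA molecule), and any pair of libraries shared between 0 and 7 cell barcodes. After clustering without the 41 genes, 1137 cells were set aside as stroma (697 fibroblast-like, 249 endothelial-like and 191 immune-like by marker genes), and the other 20020 cells were summed per library. Levels are given as CPM, the usual counts scaled to the total of the summed cells, with the totals adjusted by trimmed mean of M values (TMM). MG1 replicate 2 contributed 73 of these cells, so its levels rest on few UMIs. Epcam, an epithelial adhesion protein, lay between 1667 and 1993 CPM in MT1 but between 9.21 and 24.1 CPM in MT2, and Vim, a mesenchymal filament protein, was at 879 to 1979 CPM in MT1 and 3856 to 4058 CPM in MT2, so the MT2 cells outside the stroma were low in the epithelial marker. Brca1 ranged from 0 to 16.5 CPM over the libraries, but tags at the 3′ end of the transcript do not report a floxed exon.

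The promoters of 4 genes are shown because these genes stand for the patterns below. Isg15 rose in MT1 and fell in MT2, Irf7 did the same with a larger fall, Ifit3 rose in MT1, and Gbp2 rose in both tumors. Each run covers 250 bases before and 50 after the transcription start, 5′ to 3′ on the strand of the gene, from RefSeq (GRCm38.p6). Capitals mark the core of the interferon-stimulated response element, searched as GAAANNGAAA on both strands, with overlapping matches allowed and written as 1 run.
Isg15 (chr4:156200769-156201068, minus strand): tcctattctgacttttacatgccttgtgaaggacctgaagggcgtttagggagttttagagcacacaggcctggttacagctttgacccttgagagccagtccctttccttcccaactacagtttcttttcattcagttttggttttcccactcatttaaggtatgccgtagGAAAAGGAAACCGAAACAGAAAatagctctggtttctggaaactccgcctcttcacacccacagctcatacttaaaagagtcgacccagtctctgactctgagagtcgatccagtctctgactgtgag
Ifit3 (chr19:34583279-34583578, plus strand): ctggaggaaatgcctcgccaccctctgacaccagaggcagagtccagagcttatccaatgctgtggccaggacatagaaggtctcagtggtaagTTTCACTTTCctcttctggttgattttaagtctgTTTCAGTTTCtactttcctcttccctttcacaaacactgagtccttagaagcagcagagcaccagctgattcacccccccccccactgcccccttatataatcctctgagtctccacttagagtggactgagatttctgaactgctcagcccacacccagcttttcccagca
Irf7 (chr7:141266375-141266674, minus strand): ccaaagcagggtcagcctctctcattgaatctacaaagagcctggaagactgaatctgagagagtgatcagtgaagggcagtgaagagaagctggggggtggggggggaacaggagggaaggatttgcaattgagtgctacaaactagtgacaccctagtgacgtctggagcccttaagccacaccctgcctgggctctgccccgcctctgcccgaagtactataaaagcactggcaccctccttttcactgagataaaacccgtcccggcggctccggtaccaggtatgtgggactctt
Gbp2 (chr3:142620413-142620712, plus strand): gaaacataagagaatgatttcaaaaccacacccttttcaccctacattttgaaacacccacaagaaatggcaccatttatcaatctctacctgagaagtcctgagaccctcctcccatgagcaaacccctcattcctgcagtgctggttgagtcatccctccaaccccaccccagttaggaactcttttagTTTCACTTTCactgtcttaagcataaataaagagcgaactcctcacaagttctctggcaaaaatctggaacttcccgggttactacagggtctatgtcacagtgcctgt
Isg15 held 3 overlapping matches that start 66 to 78 bases before the transcription start, Ifit3 held 2 and Gbp2 held 1, while Irf7 had no match to these letters in this window. RefSeq promoters were found for 30 of the 41 genes. At least 1 match was present for 16 of the 30 (53.3%), against 3.99% of 27025 genes in the promoter table. The gamma-activated site, searched as TTCNNNGAA, was present for 10 of the 30 (33.3%), against 9.55% of all genes. The 16 genes with the response element core had a median log2 fold change of 1.47 in MT1 against MG1 and -1.13 in MT2 against MG2, and the 14 without it had 1.93 and -1.47. A match is a description of sequence and not a measured binding site.

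To ask how the genes changed from gland to tumor, MT1 was compared with MG1 by the quasi-likelihood test of edgeR on the library sums, with Benjamini-Hochberg adjusted p-values over 13649 genes tested. Of the 41 genes, all of which passed the low-count filter, 30 rose and 0 fell, where 32.2% of all genes tested were called higher. The median log2 fold change of the 41 was 1.90, beside 0.11 over all genes. In the second mouse the pattern was the other way. In MT2 against MG2 29 of the 41 fell and 4 rose (Zbp1, Gbp2, Gbp3 and Ifit2), where 34.2% of all genes were called lower and 32.8% higher, and the median of the 41 was -1.61 beside -0.05 over all genes. When the tumor-to-gland change of mouse 1 was tested against that of mouse 2, 37 of 41 had the more upward change in mouse 1 (background 26.4%) and 0 had it in mouse 2. Zbp1, Gbp2, Stat2 and Isg20 were the 4 that did not pass that test.

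**Figure D1:**
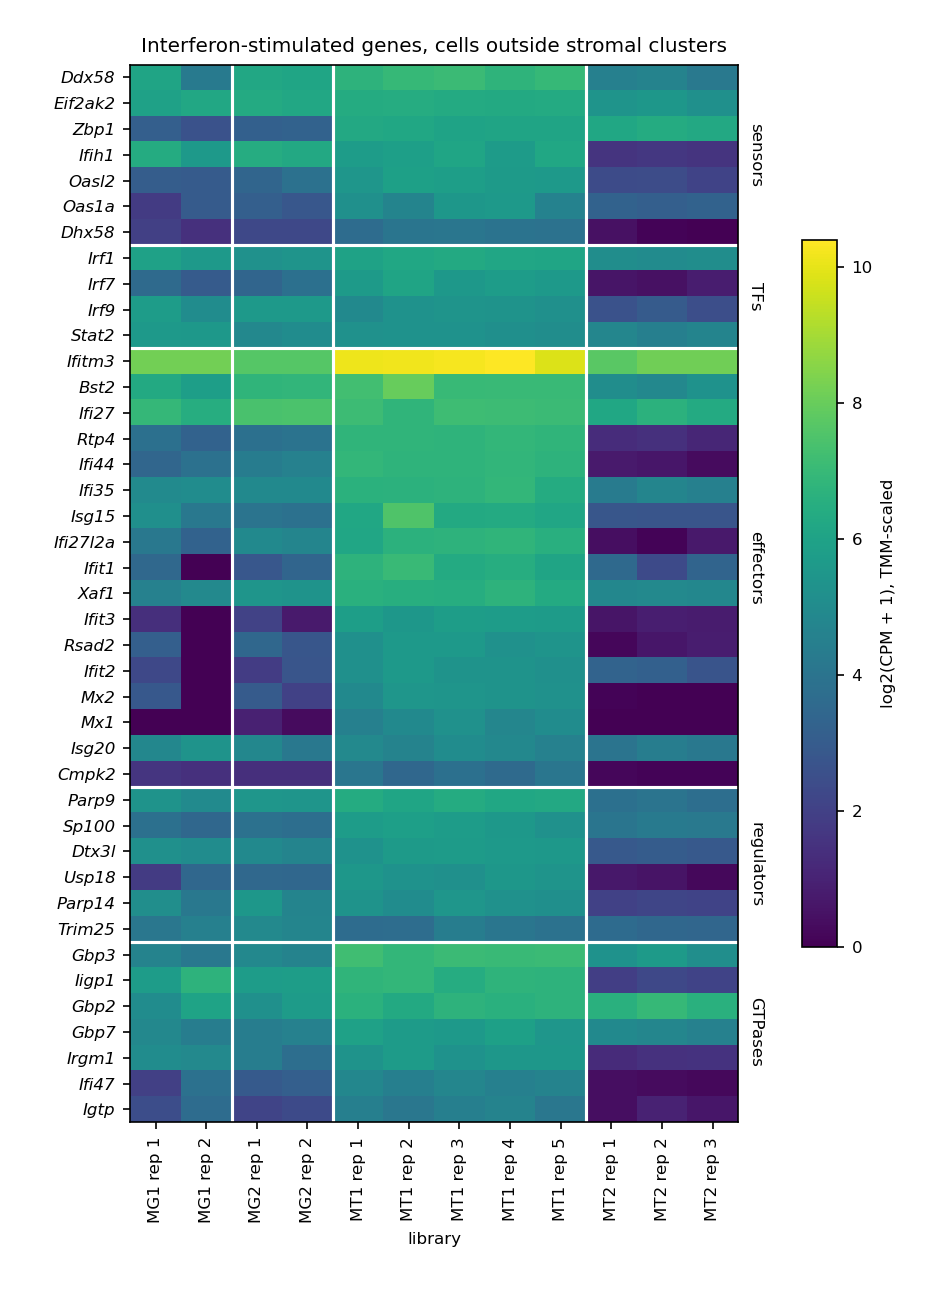
Level of each of the 41 genes (rows, grouped by role) in each of the 12 libraries (columns) as log2(CPM + 1) of cells outside the stromal clusters. The 5 MT1 libraries are brighter than the glands over most rows, and the 3 MT2 libraries are darker in most rows but not for Zbp1 and Gbp2.

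Among the 7 sensors, 5 rose in MT1 and 5 fell in MT2. Of all genes tested, 32.2% were called higher in MT1 and 34.2% lower in MT2. Ifih1, which encodes the cytosolic sensor MDA5 for long double-stranded RNA, read 82.2 and 47.6 CPM in the MG1 libraries and 53.1, 57.3, 67.1, 50.9 and 72.8 CPM in MT1. In mouse 2 it read 85.7 and 76.3 CPM in MG2 and 1.92, 2.22 and 1.97 CPM in MT2. MT1 libraries thus lay within the range of MG1, whereas every MT2 library lay far below every MG2 library. Its log2 fold change was -0.20 ± 0.20 (SE, adjusted p = 0.388, edgeR) in MT1 and -5.30 ± 0.23 (adjusted p = 7.48e-13) in MT2. Ddx58, which encodes RIG-I, a sensor of RNA with a triphosphate end, rose in MT1 (log2 fold change 1.26 ± 0.26) and fell in MT2 (-1.75 ± 0.24). Dhx58, a relative without signaling domains, went from 3.79 ± 0.05198 CPM in MG2 to 0.148 ± 0.194 CPM in MT2 (mean ± SD, n = 2 and 3) and from 2.296 ± 0.842 to 14.3 ± 1.55 CPM in mouse 1 (n = 2 and 5). Oas1a, a 2′-5′ oligoadenylate synthetase, rose in MT1 (3.40 ± 0.47) and did not pass the test in MT2 (0.26 ± 0.33).

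Zbp1, a sensor of left-handed nucleic acid that can trigger cell death, was the exception among the sensors. It was at 7.85 and 5.102 CPM in MG1 and 8.14 and 8.69 CPM in MG2. The MT1 libraries read 77.3, 72.6, 63.96, 66.2 and 65.2 CPM and the MT2 libraries 71.3, 83.999 and 75.4 CPM. All 8 tumor libraries lay above all 4 gland libraries, and the tumors overlapped. It rose by 3.25 ± 0.24 on the log2 scale in MT1 and 3.19 ± 0.19 in MT2, and the difference between the mice was 0.06 ± 0.33 (adjusted p = 1, edgeR).

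Of the 4 transcription factors, only Irf7 rose in MT1 among the genes tested in this role, and Irf7 and Irf9 fell in MT2. The shares over all genes were 32.2% higher in MT1 and 34.2% lower in MT2. With 4 genes, these counts are too few to be set apart from the shares. Irf7, which amplifies type I interferon production, read 11.2 and 6.803 CPM in MG1 and 50.1, 65.9, 45.8, 52.3 and 46.3 CPM in MT1. In mouse 2 it read 9.34 and 13.2 CPM in MG2 and 0.516, 0.383 and 0.787 CPM in MT2. No pair of these groups overlapped within either mouse. The log2 fold change was 2.35 ± 0.28 (adjusted p = 1.62e-06) in MT1 and -4.28 ± 0.32 (adjusted p = 1.34e-09, edgeR) in MT2. Irf9, the DNA-binding subunit of the complex that acts at the response element, was at 42.2 ± 13.96 CPM in MG1 and 36.8 ± 4.34 CPM in MT1, which did not pass the test, and fell from 46.8 ± 0.532 to 5.54 ± 1.196 CPM in mouse 2. Stat2, its partner, read 46.3 and 45.9 CPM in MG1, 27.8 and 32.6 CPM in MG2, 37.2, 38.1, 38.003, 35.6 and 33.2 CPM in MT1 and 26.004, 21.2 and 24.9 CPM in MT2. It did not pass the test in either tumor (-0.34 ± 0.17 and -0.33 ± 0.16), although MT1 was above MT2 by 0.60 ± 0.12. With size factors by relative log expression, which move the median of all genes in MT1 against MG1 from 0.11 to 0, Stat2 passed as lower in MT1 (-0.48). Irf1, a factor induced strongly by interferon gamma, read 59.9 and 47.6 CPM in MG1, 36.9 and 41.1 CPM in MG2, 61.9, 72.2, 77.7, 70.9 and 68.97 CPM in MT1 and 32.9, 31.6 and 33.2 CPM in MT2. Neither tumor differed from its gland past the threshold for Irf1. Its difference between the mice of 0.61 ± 0.22 (adjusted p = 0.034) lost its call under 11 of the 20 alternative settings.

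Of the 17 antiviral effectors, 15 rose in MT1 and 13 fell in MT2, with median log2 fold changes of 2.71 and -1.44. Over all genes tested, 32.2% were called higher in MT1 and 34.2% lower in MT2, with medians of 0.11 and -0.05. Isg15, a ubiquitin-like modifier, read 35.1 and 17.01 CPM in MG1 and 71.9, 182, 78.8, 81.3 and 70.1 CPM in MT1. The MG2 libraries read 14.8 and 13.9 CPM and the MT2 libraries 5.82, 5.67 and 5.59 CPM. MT1 replicate 2 stood above the other 4 MT1 libraries, which did not overlap MG1 either. Its log2 fold change was 1.70 ± 0.37 (adjusted p = 0.000823, edgeR) in MT1 and -1.33 ± 0.39 (adjusted p = 0.00539) in MT2. Bst2, which encodes tetherin, a membrane protein that holds budding virus, read 77.7 and 56.1 CPM in MG1, 109.9 and 115 CPM in MG2, 149, 253, 126, 130.2 and 131 CPM in MT1 and 33.3, 28.2 and 38.6 CPM in MT2. MT1 replicate 2 was again the highest library, and Bst2 rose in MT1 (1.17 ± 0.27) and fell in MT2 (-1.75 ± 0.25). Ifitm3, a membrane protein that blocks virus entry, read 1125, 1134, 1209, 1341 and 930.1 CPM in MT1 over 290.4 and 293 CPM in MG1, a log2 fold change of 1.98 ± 0.18. In mouse 2 the MG2 libraries read 201 and 202 CPM and the MT2 libraries 214, 278 and 277 CPM, which did not pass the test (adjusted p = 0.0899, edgeR).

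The Ifit genes, clustered on chromosome 19, encode proteins that bind viral RNA. Ifit1 read 10.3 and 0 CPM in MG1, 5.99 and 9.39 CPM in MG2, 106, 131, 81.3, 89.1 and 65.5 CPM in MT1 and 10.7, 3.99 and 9.05 CPM in MT2. Ifit3 read 1.65 and 0 CPM in MG1, 3.11 and 0.705 CPM in MG2, 56.02, 43.96, 54.6, 52.1 and 51.2 CPM in MT1 and 0.516, 0.843 and 0.708 CPM in MT2. Both were low in every gland library and in MT2 and high in each MT1 library, with log2 fold changes in MT1 of 3.56 ± 0.50 and 5.27 ± 0.46. The fall of Ifit3 in MT2 (-1.44 ± 0.51) was lost when MG2 replicate 1 (-0.01), the cells with leucocyte UMIs (-0.69) or the gland cells in tumor clusters were left out, and the rise of Ifit2 in MT2 (0.87 ± 0.33) was lost without MG2 replicate 1 (0.45), MT2 replicate 1 (0.71) or MT2 replicate 2 (0.81). Reads may be divided between Ifit3 and its near copy Ifit3b, which also stood higher in MT1 than in MT2 (log2 fold change 6.35 ± 0.30, edgeR).

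Mx1, a gene of the dynamin-like GTPases, had 594 UMIs in MT1, 5 in MG2 and 0 in MG1 and MT2. The limit for a count of 0 was 3 counts over the group. Mx1 in MT1 thus stood at least 32.6-fold higher than in MG1 and at least 418-fold higher than in MT2. The 5 UMIs of MG2 were 0.627 CPM (95% Poisson interval 0.204 to 1.46), against a limit of 0.0731 CPM in MT2. No fold is given for so few UMIs. Mx2 read 6.94 and 3.05 CPM in MG2 and 0.0737, 0 and 0 CPM in MT2, against 29.5, 43.2, 41.8, 38.97 and 37.2 CPM in MT1. Rsad2, which encodes viperin, an enzyme that makes a chain-terminating nucleotide, read 7.85 and 0 CPM in MG1, 10.1 and 5.87 CPM in MG2, 36.6, 46.3, 47.9, 37.6 and 40.7 CPM in MT1 and 0.147, 0.536 and 0.787 CPM in MT2. Its neighbor Cmpk2, a nucleotide kinase that starts on the other strand of chromosome 12, moved alike (2.71 ± 0.45 in MT1 and -3.77 ± 0.60 in MT2). Of the Ifi27 family, Ifi27l2a rose in MT1 (2.71 ± 0.30) and fell in MT2 by 6.30 on the log2 scale, from 27.6 ± 2.89 to 0.334 ± 0.278 CPM, while Ifi27, 104 ± 21.9 CPM in MG1 and 133 ± 12.5 CPM in MT1, did not pass the test in mouse 1 and fell from 171 ± 4.7003 to 85.2 ± 16.1 CPM in mouse 2. Ifi44 was also among the largest falls in MT2, from 21.1 ± 2.06 to 0.479 ± 0.219 CPM (-5.39 ± 0.25), while it rose in MT1 by 3.34 ± 0.24, and Ifit2 rose in MT1 from 1.86 ± 2.63 to 39.7 ± 4.19 CPM. Isg20, an exonuclease, was the 1 effector called in neither tumor (-0.18 ± 0.25 and -0.33 ± 0.22).

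**Figure D2:**
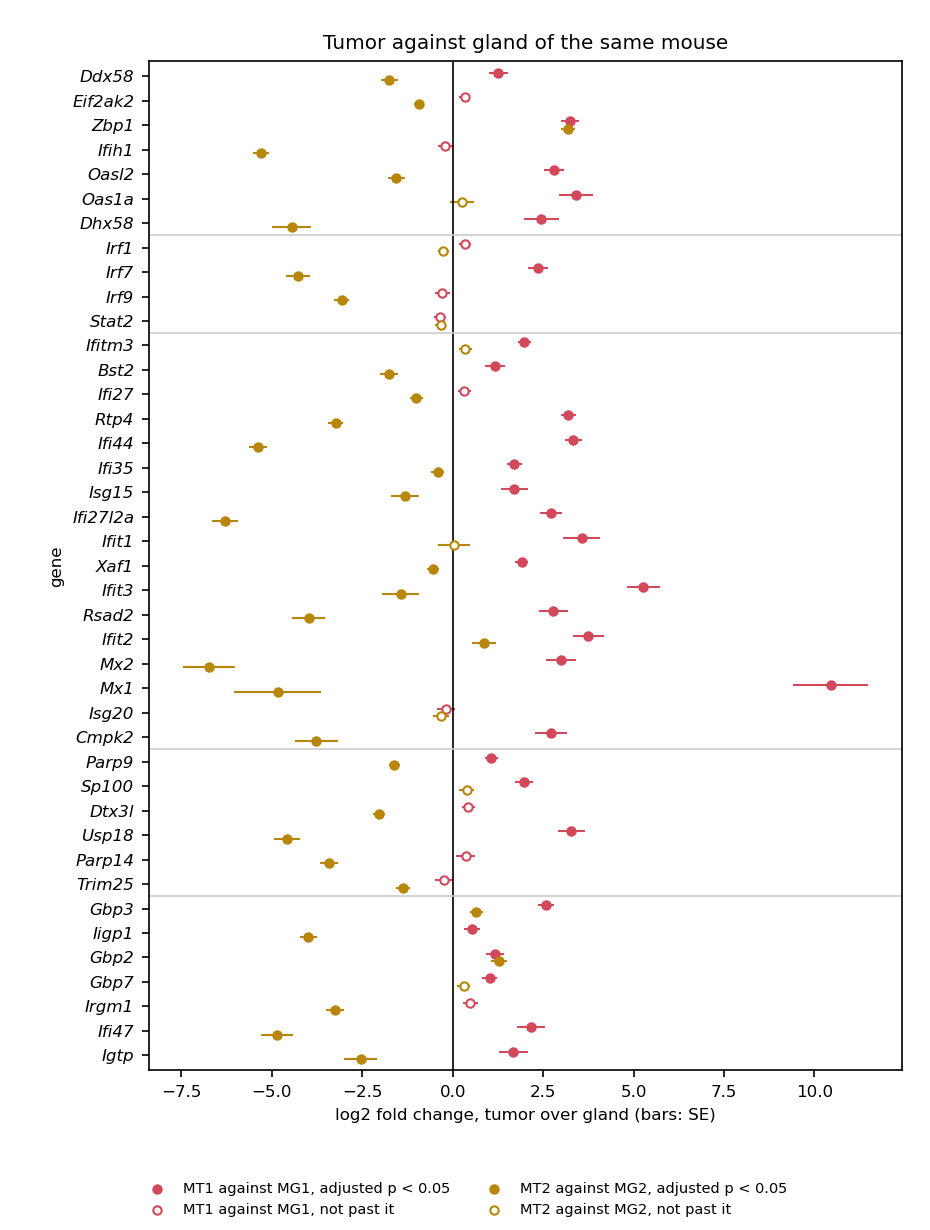
Log2 fold change of tumor over gland for each gene in mouse 1 (red) and mouse 2 (gold), with SE as bars and open circles for genes that did not pass the edgeR threshold. Red points lie to the right of 0 for 36 of 41 genes and gold points to the right for 9 of 41, and the points of Mx1 and the gold point of Mx2 are fitted values against groups with 0 or 1 UMIs, so they are no measure of size.

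Of the 6 ubiquitin and ADP-ribose enzymes and related regulators, 3 rose in MT1 and 5 fell in MT2. Beside these counts, 32.2% of all genes tested were called higher in MT1 and 34.2% lower in MT2. With 6 genes, the 3 that rose in MT1 are not set apart from that share. Usp18, the protease that removes ISG15 and restrains the receptor, read 2.48 and 10.2 CPM in MG1, 10.3 and 10.1 CPM in MG2, 44.2, 38.9, 35.7, 44.8 and 40.2 CPM in MT1 and 0.589, 0.4598 and 0.157 CPM in MT2. MT1 lay above and MT2 below every gland library, with log2 fold changes of 3.28 ± 0.38 and -4.58 ± 0.37. Parp9 rose in MT1 (1.07 ± 0.18) and fell in MT2 (-1.61 ± 0.16), and its partner Dtx3l fell in MT2 (-2.04 ± 0.17) without passing the test in MT1 (0.43 ± 0.18). The bodies of these 2 genes overlap on opposite strands of chromosome 16 (35938470 to 35972605 and 35926511 to 35939151, GRCm38), so their counts are uncertain where strand was not used. Trim25, a ubiquitin ligase that activates RIG-I, was at 19.3 ± 3.95 CPM in MG1 and 14.8 ± 3.35 CPM in MT1 and fell from 27.3 ± 2.39 to 10.5 ± 0.973 CPM in mouse 2.

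Of the 7 GTPases, which attack membranes around intracellular pathogens, 6 rose in MT1. The shares of all genes tested were 32.2% higher in MT1, and 32.8% higher and 34.2% lower in MT2. Mouse 2 divided these 7 genes by family. The guanylate-binding proteins Gbp2 and Gbp3 rose in MT2 and Gbp7 did not pass the test, while the immunity-related GTPases Igtp, Irgm1, Iigp1 and Ifi47 fell. Gbp2 read 31.8 and 64.6 CPM in MG1, 36.6 and 50.7 CPM in MG2, 99.1, 78.9, 103, 94.97 and 103 CPM in MT1 and 95.7, 124 and 95.4 CPM in MT2. Both tumors lay above both glands and overlapped each other, with log2 fold changes of 1.17 ± 0.25 and 1.27 ± 0.22. The MT1 call was lost without MG1 replicate 1 (0.57). Iigp1, at 53.2 ± 1.45 CPM in MG2, was at 3.31 ± 0.516 CPM in MT2 (-4.00 ± 0.24), and Ifi47 fell from 7.23 ± 0.739 to 0.227 ± 0.0687 CPM. This division of the 7 genes was seen after the values were known and was not tested as a group. It did not extend to all guanylate-binding proteins outside the 7. In MT2 Gbp9 fell (-0.88 ± 0.26), Gbp5 rose (3.75 ± 0.66), and Gbp4, Gbp6 and Gbp8 did not pass the test.

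Set directly against each other, MT1 was above MT2 for 39 of the 41 genes and below for 0 (background 35.3% higher), with a median log2 fold change of 2.81 beside 0.01 over all genes. Zbp1 (-0.16 ± 0.12) and Gbp2 (-0.13 ± 0.16) were the 2 that did not pass. The largest differences were those of Mx1, Mx2 and Ifi27l2a (8.10 ± 0.31). Mx2 had 1 UMI in MT2, and its level in MT1 was 1591 times that of MT2 (95% counting interval 285 to 62929). When the mouse was taken as the replicate and gland and tumor were paired by mouse, with 1 residual degree of freedom, edgeR called 0 of 40 genes tested and 0.0% of all genes, with 2 of the 40 at an unadjusted p under 0.05, whereas DESeq2 called 1 of the 40 and 1379 of all genes.

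Markers of other cell types differed between the same groups and were read over cells outside the stroma. The summed level of 8 immune markers was 178 to 209.7 CPM in MT1, 62.2 to 84.8 in MG1, 67.3 to 69.6 in MG2 and 4.89 to 6.38 in MT2. In MT1 6 of the 8 had UMIs, Coro1a and Cd53 were at 0, and Lcp1, an actin-bundling protein, made up 99.2% of the sum, while Ptprc, which encodes the leucocyte marker CD45, had 6 UMIs. The macrophage list ran from 3.93 to 6.99 CPM in MT1 and from 49.6 to 53.8 CPM in MT2, with 74.4% of it Mrc1. In the glands it ran from 5.65 to 6.37 CPM in MG1 and from 6.41 to 13.5 CPM in MG2. The fibroblast list ran from 452 to 618 CPM in MT1 and from 3481 to 3939 CPM in MT2. Its gland values were 931 to 932 CPM in MG1 and 420 to 454 CPM in MG2. The part of the fibroblast list in the results was not tested. When the 4904 cells with any UMI of the leucocyte lists (immune and macrophage) were left out, 30 of the 41 genes were called higher in MT1, 25 fell and 5 rose in MT2, and 38 differed between the tumors. The share of all genes called in that fit was not tabulated, so these counts are a description. In MT1 the cut largely follows Lcp1 and is no measure of leucocytes removed.

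The other genes of the pathway were counted as lists, and those named here were picked after their values were seen. Over all genes tested 32.2% were called higher and 27.1% lower in MT1, and 32.8% higher and 34.2% lower in MT2, and the counts below stand beside these shares. Of 10 receptors and kinases, 7 rose and 2 fell in MT1, and 5 rose and 2 fell in MT2. Both chains of the type I receptor rose in both tumors. Ifnar1 had log2 fold changes of 1.72 ± 0.21 in MT1 and 1.47 ± 0.17 in MT2, and Ifnar2 0.98 ± 0.22 and 1.42 ± 0.18. Jak1, the kinase bound to these receptors, fell in both (-0.61 ± 0.15 and -0.47 ± 0.15). Ifnlr1, the specific chain of the type III receptor, averaged 8.53 CPM in MG2 and had 0 UMIs in MT2 libraries. Of 16 upstream sensing genes tested, 7 rose and 2 fell in MT1, and 6 rose and 6 fell in MT2. Tlr3, a receptor for double-stranded RNA in endosomes, fell in MT2 (-2.40 ± 0.28), as did Irf3 (-1.20 ± 0.19), a factor that starts interferon transcription. Of 36 further stimulated genes tested, 26 rose and 3 fell in MT1, and 7 rose and 9 fell in MT2. Slfn2 (2.96 ± 0.24) and Ifi204 (3.24 ± 0.18) were among the 7 that rose in MT2, and Cxcl10, a chemokine that attracts T cells, rose in MT1 (4.36 ± 0.50). Of 5 negative regulators, 2 rose and 1 fell in each tumor. Socs1, an inhibitor of JAK kinases, rose by 1.88 ± 0.33 in MT1 and 1.85 ± 0.26 in MT2, and Pias1, a SUMO ligase, fell in both (-1.26 ± 0.25 and -1.37 ± 0.21).

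Within MT1, cells were gated on 2 genes that are not among the 41. Epcam-positive cells (at least 1 Epcam UMI and under 2 Cav1 UMIs) numbered 5545, and Cav1-high cells (at least 2 Cav1 UMIs and 0 Epcam UMIs) numbered 997 of 7457, with a median of 2104 and 2205 UMIs per cell. Cav1 encodes caveolin, which is typical of mesenchymal cells. In Cav1-high against Epcam-positive cells of the same library, 38 of the 41 genes were lower and 2 higher, where 32.2% of all genes tested were called lower and 31.0% higher. The median log2 fold change was -1.60, beside -0.02 over all genes. All 7 sensors, all 4 transcription factors and all 6 regulators were lower.

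**Figure D3:**
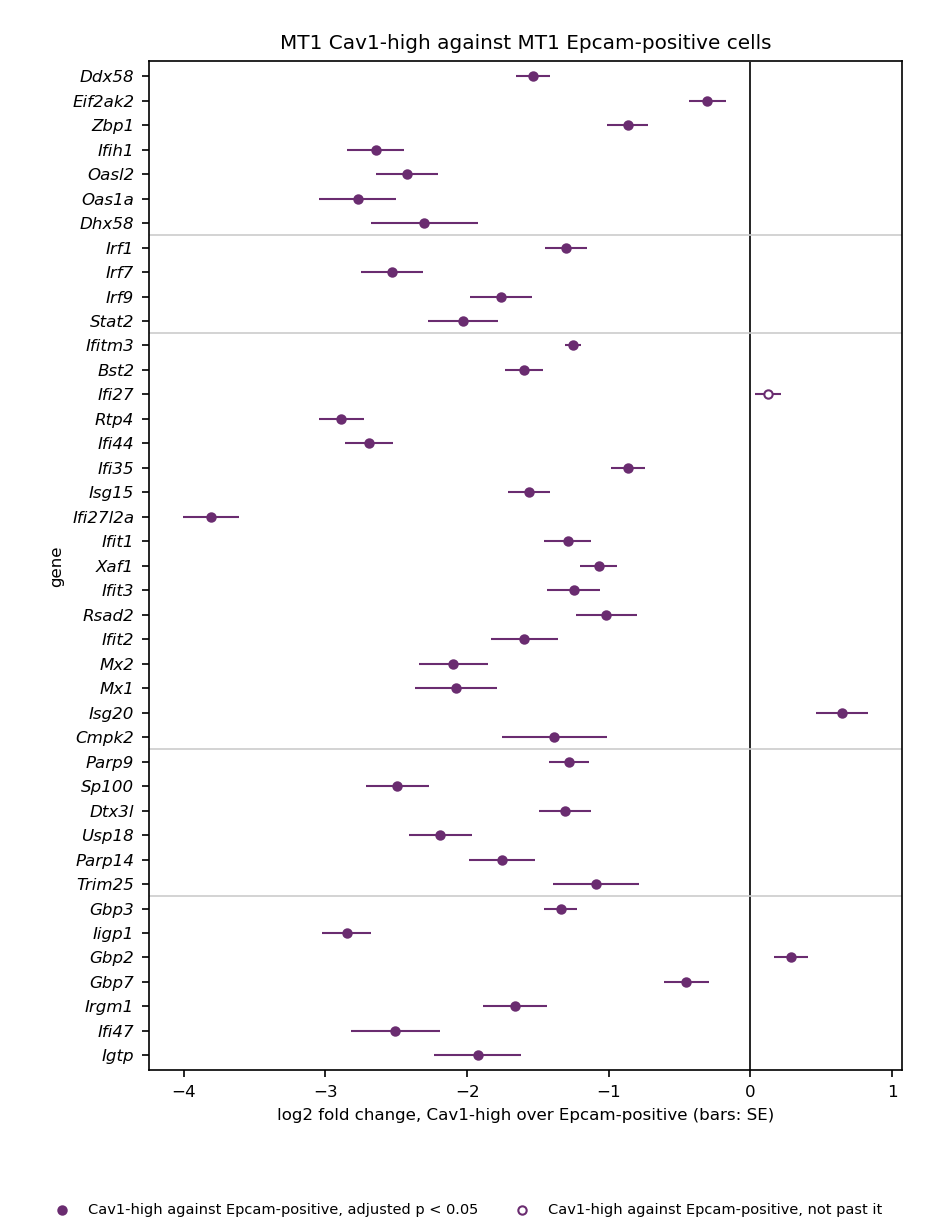
Log2 fold change of Cav1-high over Epcam-positive cells of MT1 for each gene, with SE as bars and an open circle for Ifi27, which did not pass the threshold. Only Isg20, Gbp2 and Ifi27 lie to the right of 0.

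Ifi27l2a read 99.7, 112, 133, 144 and 121 CPM in the Epcam-positive cells of the 5 libraries and 0, 17.5, 7.28, 13.7 and 6.75 CPM in the Cav1-high cells (-3.81 ± 0.20). Rtp4, a chaperone of G protein-coupled receptors, read 149, 122, 130.0, 139 and 138 CPM and 24.5, 29.2, 12.1, 23.6 and 11.8 CPM (-2.89 ± 0.16). Iigp1 read 149, 127, 101, 130.2 and 132 CPM and 21.02, 11.7, 4.85, 22.4 and 25.3 CPM (-2.85 ± 0.17). These 3 had the largest falls, and none overlapped between the populations. Irf7 fell from 61.8 ± 6.61 to 11.98 ± 7.46 CPM and Stat2 from 42.6 ± 4.82 to 7.65 ± 5.68 CPM (mean ± SD, n = 5). Isg20 read 28.6, 22.1, 29.9, 23.7 and 18.1 CPM in Epcam-positive and 35.03, 17.5, 40.05, 42.3 and 38.8 CPM in Cav1-high cells, and was higher by 0.64 ± 0.18 with overlap in replicate 2. Gbp2 was 94.996 ± 17.7 and 118 ± 32.2 CPM, and its call (0.28 ± 0.12, adjusted p = 0.0344, edgeR) was lost without replicate 2 (0.19), replicate 3 (0.30) or replicate 4 (0.18). Isg15 in the Cav1-high cells of replicate 2, which rest on 38 cells, read 93.4 CPM, against 17.5 to 37.3 CPM in the other libraries.

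Cav1-high MT1 cells, gated on 0 Epcam UMIs, were also compared with all MT2 cells outside the stroma, which were low in Epcam but not gated on it. Of 26 genes that passed the filter in this fit, 21 were higher in the Cav1-high cells and 3 lower (Zbp1, Stat2 and Sp100), where 30.7% of all genes tested were called higher and 31.1% lower. The other 15 were not tested, since they had too few UMIs in these sums, and a gene low in MT2 could pass the filter only through the Cav1-high cells, so the count of 26 favors higher calls and is given as a description. With no low-count filter, 31 of all 41 genes were called higher and 3 lower, where 14.3% of the 20178 genes of that fit were called higher and 19.2% lower. Rsad2 had 61 UMIs in the Cav1-high cells and 19 in MT2, Ifi44 55 and 19, and Ifit3 68 and 27, from fewer cells in the Cav1-high population (997 against 9785, with a median of 2205 and 3142 UMIs per cell).

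The sum of the 41 genes per cell, as UMIs per 10000 UMIs of the cell, was described by population with no test. Its mean over libraries was 13.3 ± 0.312 in MG1 (SD, n = 2), 14.0 ± 0.0929 in MG2 (n = 2), 42.9 ± 2.36 in MT1 Epcam-positive cells (n = 5), 19.2 ± 5.72 in MT1 Cav1-high cells (n = 5) and 8.56 ± 0.79 in MT2 (n = 3). Over single cells the median was 10.0 in MG1, 12.2 in MG2, 32.4 in Epcam-positive, 11.5 in Cav1-high and 7.18 in MT2 cells. The range of the libraries separated the Epcam-positive cells (39.5 to 45.5) from the other 4 of these populations, while Cav1-high libraries ran from 13.9 to 28.7, above both MG1 libraries (13.1 and 13.5), and the lowest of them was at the level of MG2 (14.0 and 14.1).

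**Figure D4:**
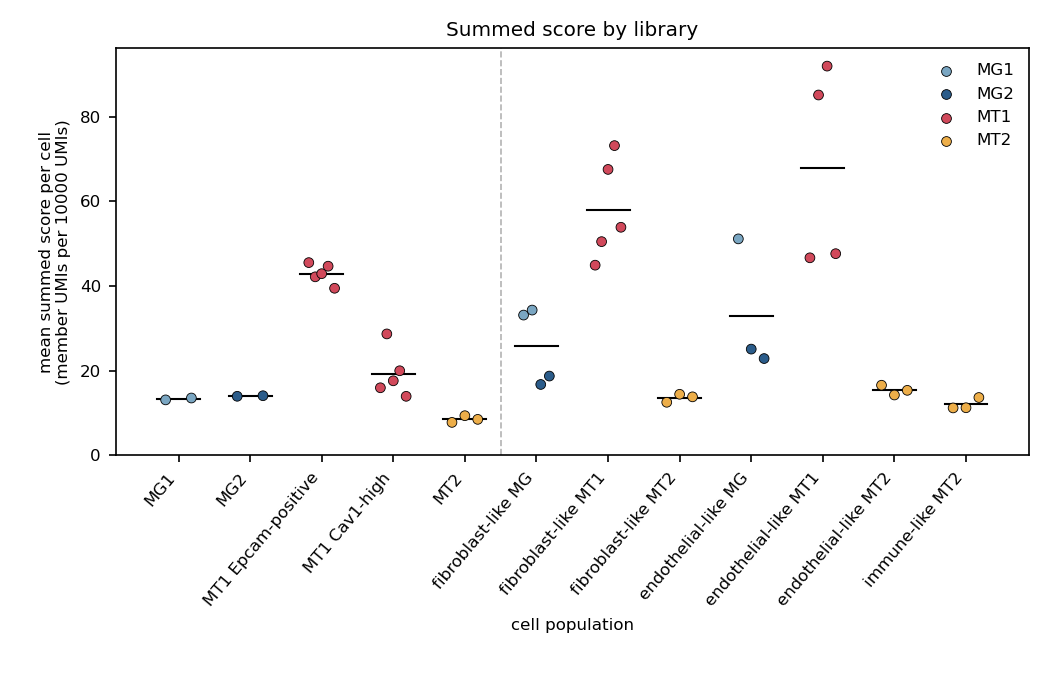
Mean summed score per cell (member UMIs per 10000 UMIs) in each library with at least 10 cells of the population, with points colored by group and bars at the mean of the points. In the stroma to the right of the dashed line, MT1 points lie between 44.9 and 91.9 and MT2 points between 11.2 and 16.6.

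In fibroblast-like and endothelial-like stroma too, the pooled score was highest in MT1. Fibroblast-like cells had library means of 44.9 to 73.1 in MT1 (136 cells), 12.5 to 14.4 in MT2 (301 cells), 33.1 and 34.3 in MG1, and 16.7 and 18.7 in MG2 (260 gland cells). The groups held different clusters of this class. Cluster 11 held 125 MG1 and 124 MG2 cells of the 260 from glands, and cluster 9 held 105 of the 136 MT1 and 295 of the 301 MT2 cells. Within cluster 9 the pooled score was 59.5 in MT1, 13.3 in MT2 and 9.84 in 11 cells of MG2. Within cluster 11 it was 56.4 in 31 cells of MT1, 33.8 in MG1, 18.4 in MG2 and 41.01 in 6 cells of MT2. MT1 was thus highest in both clusters. The order of MT2 and MG2 within a cluster rests on 11 MG2 cells or 6 MT2 cells, too few to decide it. Endothelial-like cells, of which the depletion left 249, had a pooled score of 74.6 in MT1 (95% Poisson interval 71.0 to 78.3), 29.1 in the glands (27.4 to 30.8) and 14.8 in MT2 (12.8 to 17.0). The glands differed, with a pooled score of 51.9 in 20 cells of MG1 and 24.0 in 89 cells of MG2. MG1 replicate 1, at a library mean of 51.1, lay above MT1 replicates 2 (46.6) and 5 (47.6). The 182 immune-like cells of MT2 had a pooled score of 10.97 (10.1 to 11.9), while glands and MT1 held 6 and 3 such cells. In the endothelial-like cells of MT1 Rsad2 was at 340.0 CPM and Irf7 at 249 CPM, against 47.2 and 59.6 CPM in the Epcam-positive cells of that tumor (unscaled sums over libraries). The 95% Poisson intervals in the endothelial-like cells were 267 to 426 CPM for Rsad2 and 188 to 325 CPM for Irf7. These genes were picked after their values were seen. Intervals cover counting error only, and RNA that drifts between droplets of a library was not measured.

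To compare the spread over cells at equal depth, each cell was thinned to 500 UMIs, which left out 0 cells. At least 3 UMIs of the 41 genes were then found in 31.6 ± 2.33% of Epcam-positive cells, 9.68 ± 3.86% of Cav1-high cells, 1.42 ± 0.175% of MT2 cells, 5.08 ± 0.558% of MG1 cells and 4.14 ± 1.46% of MG2 cells (SD over libraries). Without thinning the shares were 86.2%, 56.6%, 52.5%, 70.7% and 61.5%, which also follow depth. The ratio of variance to mean, which is 1 for counts that vary by sampling alone, was 2.55 ± 0.318 in Epcam-positive, 3.01 ± 1.498 in Cav1-high, 1.18 ± 0.123 in MT2, 1.55 ± 0.0258 in MG1 and 1.22 ± 0.0867 in MG2 cells. The Cav1-high value rests on replicate 2 (5.55), since the other 4 libraries lay between 1.70 and 2.92.

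**Figure D5:**
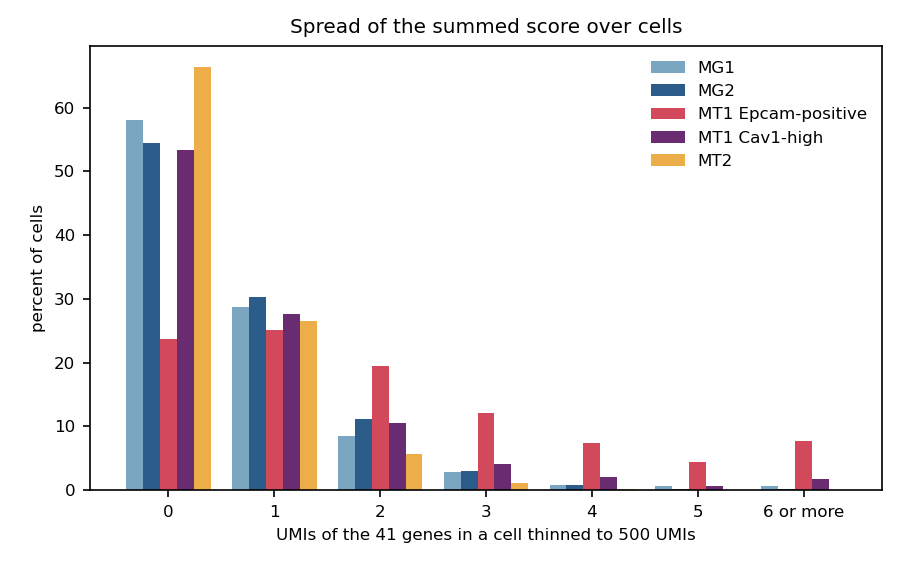
Percent of cells by the number of UMIs of the 41 genes after thinning to 500 UMIs per cell, for 5 populations. MT1 Epcam-positive cells reach far to the right, and 66.4% of MT2 cells are at 0, against 23.8% of Epcam-positive cells.

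Whether the genes rise in the same cells was asked by gating on Ifit1, Ifit2 or Ifit3. In MT1 13.5% to 23.9% of cells per library had at least 1 UMI of these genes, and in MT2 2.87% to 5.20% did. Ifit-positive cells were deeper (median 1897 to 3537 UMIs against 1775 to 2764 in MT1, and 3319 to 6922 against 2311 to 4709 in MT2). Leaving the 3 gate genes out of the count, 37 of the other 38 genes were higher in the Ifit-positive cells of MT1 and 1 (Ifi27, -0.29 ± 0.08) was lower, where 6.06% of all genes tested were called higher and 4.54% lower. Mx1 (3.73 ± 0.13), Rsad2 (3.47 ± 0.12) and Cmpk2 (3.28 ± 0.20) differed most. Within Epcam-positive cells alone the counts were the same, 37 and 1. In MT2 13 of 28 genes tested were higher and 0 lower (background 0.975% higher). The other 10 were not tested, and a gene near absent from MT2 could pass the filter only through the Ifit-positive cells, so this count favors higher calls and is a description. With no low-count filter 10 of 37 were called higher and 0 lower, where 0.358% of the 19539 genes of that fit were called higher and 1.23% lower. Among the 13 were Ifih1 (4.98 ± 0.42) and Isg15 (3.11 ± 0.28). Rsad2 had 17 UMIs in the Ifit-positive and 2 in the Ifit-negative cells of MT2, a ratio of 154 (95% counting interval 36.6 to 1376). These UMIs lay in 0.0613% of the 9785 MT2 cells. The interval takes each UMI as independent and is too narrow for so few cells. The count of 13 was 5 with DESeq2, 8 without MT2 replicate 1 and 7 without replicate 2.

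At a finer clustering of 17 clusters, made without the 41 genes, the cluster with the highest summed score held 360 cells, 357 of them from MT1 and outside the stroma. It made up 4.55% to 5.75% of the MT1 cells in each library and 12.2% to 17.5% of the UMIs of the 41 genes. Its pooled score was 99.1, beside 33.8 in the other MT1 cells, and 254 of its cells were Epcam-positive and 10 Cav1-high. Mx1 was at 273 CPM in the cluster and 17.1 CPM in the other MT1 cells, and Rsad2 at 316 and 27.0 CPM. Ifi27l2a was lower in it (61.0 against 101 CPM), as was Ifi27 (109 against 135 CPM). Genes outside the 41 that led the cluster included Krt6a, a keratin of stressed epithelium (1159 against 13.6 CPM), Cxcl9 (259.6 against 11.9 CPM), Gbp4 (327 against 14.1 CPM) and Il24 (214 against 8.74 CPM), and these helped to define it. The cluster was chosen for its score, so these values are a description.

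Interferon transcripts themselves were near the limit of detection. Of 21 ligand genes listed, 4 were in the table. Ifnb1, which encodes interferon beta, had 24 UMIs, all in MT1, in 6 Epcam-positive cells. Of these, 18 UMIs were in 1 cell, and 22 UMIs in 4 cells fell in the cluster with the highest score. Ifnl3 had 7 UMIs, all in MT1, while Ifnk (14 UMIs) and Ifne (5 UMIs) were seen in MT2 alone. A count of 0 allows up to 0.0704 CPM of Ifnb1 in MT2, 0.347 CPM in MG2 and 0.792 CPM in MG1, for counting error only. MT1 replicate 4 held 20 of the 24 UMIs, and with most of them in 1 cell the MT1 level of 1.201 CPM says little about how many such cells a smaller group would hold. No interferon UMI was found among the 1137 stromal cells.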

How the data were processed

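The deposited table holds whole-number UMI counts, 1 column for each cell, that were not normalized. The authors aligned Drop-seq reads to GRCm38.p6 with STAR, counted UMIs with the Drop-seq tools, and filtered cells and genes. The strand setting is not given in the sources used here. The table held 21743 genes and 21157 cells, of which 3153 came from glands and 18004 from tumors, the cell numbers that the study also states, and the lowest cell had 800 detected genes. Intervals and limits cover counting error only.

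Counts were log-normalized and clustered with scanpy 1.11.5 and leidenalg 0.10.2 (3000 variable genes without the 41, 30 components, 20 neighbours, resolution 0.6), and clusters were named from marker lists. No doublet caller was run, and leaving out the 5% deepest cells was an alternative. Counts outside stromal clusters were summed per library and tested with edgeR 4.0.16 (TMM, filterByExpr, quasi-likelihood test, adjusted p under 0.05 over all genes). The library contrasts used 1 fit over all 12 libraries. Gated populations of the same tumor had the library as block, and Cav1-high MT1 cells against MT2 cells had no block. SE is the log2 fold change over the square root of F. The test was tried on simulated data. Alternatives were size factors by relative log expression, DESeq2 1.42.0, no low-count filter, other cell sets, other gates and leaving out each library. Added fits on Epcam-positive cells alone were chosen after seeing the data. Gland and tumor of a mouse were paired by the mouse label in a separate fit of 4 sums.

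The 41 genes, their roles and the gene lists were chosen with earlier results of these data known. Genes given by library were Isg15, Ifit1, Ifit3, Irf7, Irf1, Stat2, Usp18, Bst2, Ifitm3, Gbp2, Rsad2 and Ifih1. Also named were the 3 largest called changes in each direction of 4 contrasts, not all of them by library, and members described with their role. Motifs were searched in RefSeq promoters (GRCm38.p6), and positions are from GENCODE vM21.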

Additional observations from a re-analysis of the deposited data

Results flagged for a closer look

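Bst2 in MT1 replicate 2 was 253 CPM, while the other 4 MT1 libraries lay between 126 and 149 CPM. Isg15 in the same library was 182 CPM, and the others lay between 70.1 and 81.3 CPM. Both gaps exceed the 95% limit of the Dixon test for 5 libraries. Of 23 such tests 2 were past it, and chance gives about 1 in 20 groups. The change from gland to tumor differed between the mice for 37 of the 41 genes by the interaction test of edgeR, as described above. Ifnb1, which entered no comparison, had 24 UMIs in MT1 and 0 in the other groups.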

How the results depend on the processing

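The counts of members called stayed within 1.5 times the value reported under every alternative run for 7 of the 9 comparisons. For MT1 against MG1 they ranged from 26 to 34, for MT2 against MG2 from 28 to 35, for the difference between the mice from 34 to 37, for MT1 against MT2 from 38 to 39, for Cav1-high against Epcam-positive cells from 37 to 40, for Cav1-high against MT2 cells from 20 to 34 and for Ifit-positive cells of MT1 from 37 to 38. For Ifit-positive cells of MT2 the 13 called became 5 with DESeq2, where the cause was not tested, and 7 to 12 when a library was left out, where fewer samples were fitted. It was 18 with the gate on Isg15, and 10 to 13 under the other 4 alternatives. With the mouse as block 0 were called by edgeR and 1 by DESeq2. Of 1380 values of named genes under alternatives, 1336 kept their call, 26 lost it, 18 gained it and 0 reversed. The mean summed score without Ifitm3 and Bst2 was 9.40 in MG1, 11.03 in MG2, 28.2 in MT1 Epcam-positive, 12.4 in MT1 Cav1-high and 5.82 in MT2 cells, which is lower by construction with the same order of tumors and glands. Thinned to 500 UMIs it was 13.0 in MG1 and 13.4 in MG2, and thinned to 1000 UMIs 12.3 and 14.2, each further from the reported value than the spread of 2 libraries. Between glands and tumors no paired analysis was possible by replicate number because the numbers were given in accession order. Gland and tumor were paired by mouse, and gated populations of the same tumor by library. Mx1, Mx2, Ifit1, Ifit2, Ifit3 and Rsad2 had 0 UMIs in MG1 replicate 2, and a lower level there was not detectable.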
